A study of Homo sapiens with 9 samples.

Results

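The genes described here encode the chaperones of the endoplasmic reticulum (ER) and the sensors and effectors of the unfolded protein response. A list of 34 gene symbols was looked up among the 20323 rows of the deposited expression table. All 34 were found, and all passed the filter on low counts that left 13153 genes for testing. DNAJB11 stood on 2 rows, of which the row with 19462 summed counts was used and the row with 1225 was not. The cells were HKC-8, an established line of human kidney proximal tubular epithelium, and polyadenylated RNA was sequenced in 9 libraries that form 3 groups of 3. Wnt1_KP6 cells carried the plasmid for the secreted ligand Wnt1 and were treated with KP6, a peptide derived from the kidney protein Klotho. Wnt1 cells carried the same plasmid without KP6. Control cells carried the empty vector pcDNA3, so all 3 groups were transfected. The labels used here state neither the promoter that drives Wnt1, nor the dose of KP6, nor the time of harvest, nor any selection of transfected cells. Nothing in them says that replicates are separate cultures. The p-values below thus reflect only how these samples vary, and that variation may be technical.

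The ER folds proteins that are secreted or placed in membranes. When unfolded proteins build up there, the membrane sensors IRE1 (gene ERN1), PERK (EIF2AK3) and ATF6 are released from the chaperone BiP (HSPA5): IRE1 splices the messenger RNA of XBP1, PERK slows translation and favours that of ATF4, and ATF6 is cut to a free transcription factor. The spliced XBP1 protein and cut ATF6 then raise the genes of chaperones, of disulfide isomerases and of ER-associated degradation, the pathway that returns misfolded proteins to the cytosol for destruction. In kidney tubule cells this response is best known from injury, where it can restore folding or, through the PERK branch, end in cell death.

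Libraries held 21199078 to 27507623 expected counts. WNT1 itself had 1, 2 and 0 counts in the libraries labelled Wnt1_KP6, 0 in each library labelled Wnt1 and 0 in each control library, and with 0 counts a true level of up to 3 counts (0.109 to 0.142 CPM) remains possible, for counting error only. The counts of WNT1 thus do not show the overexpression that the labels name, and the group names below are those of the labels. ATF3, the transcription factor named in the study's title, had 25.4, 668 and 664 CPM in Wnt1_KP6 libraries, 30.3, 93.9 and 93.4 CPM in Wnt1 libraries and 18.2, 7.84 and 8.78 CPM in control libraries. CPM is the expected count per 1000000 counts of a library, after TMM scaling with factors of 0.943 to 1.05. Replicate 1 was the lowest for ATF3 among both Wnt1_KP6 and Wnt1 libraries and the highest among control libraries, and it also held less mitochondrial RNA (5.17 to 5.72% of counts in replicate 1 of the 3 groups against 7.01 to 7.97% in replicates 2 and 3). Of 22 renal epithelial markers 10 were above a mean of 1 FPKM, the authors' measure per length and library size. KRT8, KRT18, PAX8, GGT1, EPCAM, CDH2 and DPP4 were among them, while the proximal tubule transporters SLC22A6 and SLC22A8 were listed at 0 and LRP2, CUBN, AQP1 and SLC34A1 were near 0. Their summed level was 1025 to 1062 FPKM in Wnt1_KP6, 1014 to 1053 FPKM in Wnt1 and 924 to 1024 FPKM in control libraries. Of the markers of other cell types, 0 of 8 for distal nephron, 0 of 6 for endothelium, 2 of 8 for fibroblasts (COL1A1 and ACTA2) and 1 of 6 for leukocytes (CD68) passed 1 FPKM, and PTPRC and CD3E were listed at 0.

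The 34 genes together took 0.910, 1.04 and 1.01% of all counts in Wnt1_KP6 libraries, 0.951, 1.04 and 1.03% in Wnt1 libraries and 0.929, 0.820 and 0.785% in control libraries. HSPA5 alone took 0.142, 0.222 and 0.208% in Wnt1_KP6, 0.162, 0.204 and 0.204% in Wnt1 and 0.104, 0.0708 and 0.0639% in control libraries. The other 33 genes took 0.769, 0.816 and 0.806% in Wnt1_KP6, 0.789, 0.834 and 0.83% in Wnt1 and 0.825, 0.75 and 0.721% in control libraries. The share of HSPA5 was higher in all 6 libraries with the Wnt1 plasmid than in any control, while the summed share of the other 33 genes overlapped because control replicate 1 was high. In bulk RNA, fewer cells of a kind and less RNA per cell cannot be told apart.

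Levels per length are compared between genes in control cells. CALR, the calcium-binding lectin chaperone calreticulin, was the highest with a mean of 559.7 ± 18.1 FPKM (SD, n = 3) and ranked 103 among all 20323 genes. HSP90B1, the ER member of the HSP90 family, followed with 455 ± 31.1 FPKM, P4HB, a protein disulfide isomerase, with 384 ± 30.1 FPKM and HSPA5 with 273 ± 68.2 FPKM. Neighbours in this order often lay within their spread: PDIA6 at 226 ± 26.7 and PDIA3 at 217 ± 6.04 FPKM could not be ranked by these libraries. In all, 10 genes were at 100 FPKM or more, 15 were from 10 to under 100 FPKM and 9 were under 10 FPKM. The bottom of the order held the sensor gene ERN1 with 2.93 ± 1.87 FPKM and the degradation factor DERL3 with 1.08 ± 0.585 FPKM. In the libraries with the Wnt1 plasmid the order at the top differed: HSPA5 averaged 659.7 ± 150 FPKM in Wnt1_KP6 libraries, 658 ± 85.4 FPKM in Wnt1 libraries and 273 ± 68.2 FPKM in control libraries, above the mean of CALR in the first 2 groups.

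**Figure D1:**
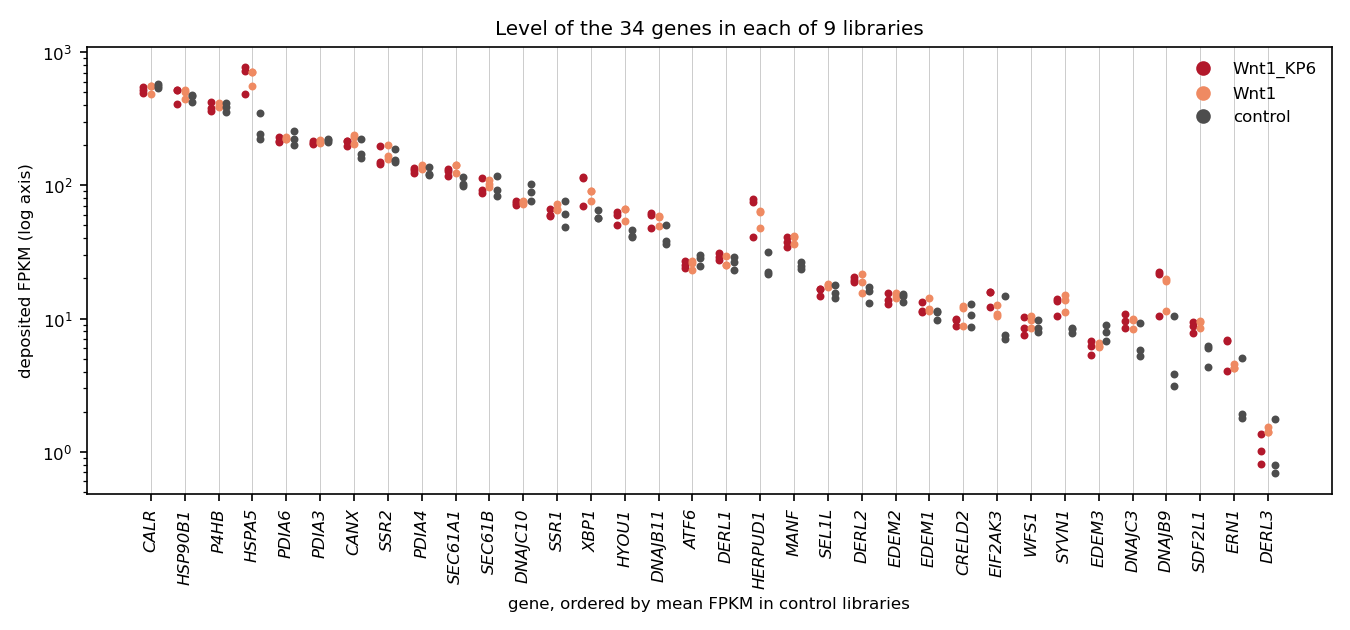
Deposited FPKM (log axis) of the 34 genes in each library, ordered from left to right by mean in control cells; for every gene the points stand in the order Wnt1_KP6, Wnt1 and control. CALR at 559.7 FPKM and DERL3 at 1.08 FPKM mark the ends, and HSPA5 is the only one of the 4 highest genes whose Wnt1_KP6 and Wnt1 points all lie above its control points.

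The promoters of these genes are known for the ER stress response element, which reads CCAAT, then 9 bases of any kind, then CCACG, and is bound by ATF6 and spliced XBP1 together with the CCAAT factor NF-Y. A shorter element II reads ATTGG, then 1 base, then CCACG. Both were searched on both strands in windows of 250 bases before to 50 bases after each start site in the RefSeq promoter table (GRCh38.p14), which held windows for 31 of the 34 genes. The first element was present for 7 of 31 genes (22.6%: HSPA5, XBP1, HSP90B1, CALR, CANX, PDIA6 and CRELD2), against 16 of the 10495 tested genes with a window (0.152%), those 7 included. Element II was present for 3 of 31 (9.68%: HERPUD1, HYOU1 and SDF2L1), against 14 of the same 10495 genes (0.133%). As given below, DESeq2 called 9 members higher in Wnt1_KP6 against control libraries (background 3.57%). Among them HSPA5, HERPUD1, HYOU1, SDF2L1 and XBP1 held an element, while MANF, DNAJB9, SYVN1 and ERN1 held neither. The other members with an element, HSP90B1, CALR, CANX, PDIA6 and CRELD2, were not called by DESeq2 there. The 250 bases before the start site are shown for 7 genes. These are the called members with an element, and HSP90B1 and CALR, which hold the first element and had smaller fold changes. Each is written 5′ to 3′ on the gene's strand, from RefSeq (GRCh38.p14), with the elements in capitals:
HSPA5 (chr9:125241344-125241593, minus strand): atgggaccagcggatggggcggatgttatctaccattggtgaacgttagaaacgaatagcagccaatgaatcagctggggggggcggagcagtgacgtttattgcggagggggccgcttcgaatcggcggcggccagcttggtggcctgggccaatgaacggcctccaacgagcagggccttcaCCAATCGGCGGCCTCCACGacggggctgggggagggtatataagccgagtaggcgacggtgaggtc
HERPUD1 (chr16:56931892-56932141, plus strand): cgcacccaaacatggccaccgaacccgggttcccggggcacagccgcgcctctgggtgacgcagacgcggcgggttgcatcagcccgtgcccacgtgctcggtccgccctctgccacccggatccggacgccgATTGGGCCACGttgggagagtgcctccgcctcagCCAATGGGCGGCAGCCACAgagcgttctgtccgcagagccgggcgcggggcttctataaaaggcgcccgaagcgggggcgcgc
HYOU1 (chr11:119057206-119057455, minus strand): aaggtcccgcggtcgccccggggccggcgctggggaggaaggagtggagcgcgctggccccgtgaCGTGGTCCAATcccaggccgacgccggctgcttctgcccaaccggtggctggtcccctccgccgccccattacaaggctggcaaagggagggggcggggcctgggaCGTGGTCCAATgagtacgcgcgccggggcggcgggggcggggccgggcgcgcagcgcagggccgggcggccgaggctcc
SDF2L1 (chr22:21642052-21642301, plus strand): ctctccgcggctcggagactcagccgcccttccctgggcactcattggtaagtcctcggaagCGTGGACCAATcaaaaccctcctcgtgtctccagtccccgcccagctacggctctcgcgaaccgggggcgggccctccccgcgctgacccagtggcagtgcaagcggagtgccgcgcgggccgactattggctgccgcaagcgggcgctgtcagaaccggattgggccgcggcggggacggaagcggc
XBP1 (chr22:28800570-28800819, minus strand): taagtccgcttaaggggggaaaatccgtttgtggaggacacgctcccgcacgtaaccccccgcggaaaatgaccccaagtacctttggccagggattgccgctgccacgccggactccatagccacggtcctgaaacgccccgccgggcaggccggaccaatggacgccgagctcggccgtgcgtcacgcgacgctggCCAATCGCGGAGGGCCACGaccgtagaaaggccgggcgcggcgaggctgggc
HSP90B1 (chr12:103930160-103930409, plus strand): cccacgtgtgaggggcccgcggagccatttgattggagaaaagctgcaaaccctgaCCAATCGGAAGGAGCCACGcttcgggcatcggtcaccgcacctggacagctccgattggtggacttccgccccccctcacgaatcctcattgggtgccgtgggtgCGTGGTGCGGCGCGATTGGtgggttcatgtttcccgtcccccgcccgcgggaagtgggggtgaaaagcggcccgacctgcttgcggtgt
CALR (chr19:12938359-12938608, plus strand): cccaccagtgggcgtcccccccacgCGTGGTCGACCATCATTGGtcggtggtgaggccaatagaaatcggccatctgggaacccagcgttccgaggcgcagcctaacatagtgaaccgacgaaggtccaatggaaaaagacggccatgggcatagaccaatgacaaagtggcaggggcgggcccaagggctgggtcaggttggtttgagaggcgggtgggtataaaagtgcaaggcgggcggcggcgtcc
In HSPA5 the element lies 66 to 48 bases before the start and in XBP1 52 to 34 bases before it, both in the forward direction. HERPUD1 holds element II 117 to 107 bases before the start and, 83 to 65 bases before it, a copy of the first element that differs only in its last base. HYOU1 holds 2 copies of element II, 185 to 175 and 79 to 69 bases before the start, in reverse, and the copy farther from the start overlaps the sequence TGACGTGG at 188 to 181 bases. SDF2L1 holds element II once in reverse, 188 to 178 bases before the start. HSP90B1 holds the first element 194 to 176 bases before its start and, in reverse, 89 to 71 bases before it, and CALR holds it in reverse at 225 to 207 bases. TGACGTGG, a core recognised by spliced XBP1 and ATF6, was found for 2 of 31 genes (6.45%: HYOU1 and DNAJC10) against 1.23% of the tested genes, and CCAAT alone, which is part of the first element and in reverse of element II, for 27 of 31 (87.1%) against 43.3%. TGACGTGA and the cyclic AMP response element TGACGTCA were found for 0 of 31 genes, against 0.715% and 3.65% of the tested genes. A match describes letters in a window, not binding.

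The effect of the Wnt1 plasmid was read by comparing Wnt1 with control libraries. Most of the 34 genes had a higher mean in Wnt1 libraries, and the highest fold changes belonged to the cochaperone DNAJB9, the degradation factor HERPUD1 and the chaperone HSPA5, yet none passed the test over all genes. Of the 34 genes 29 had a log2 fold change above 0, and the median was 0.16, against -0.00 over the 13153 genes tested. With Benjamini-Hochberg adjustment, the quasi-likelihood test of edgeR called 0 of 34 at an adjusted p under 0.05, where it called 0.122% of all genes tested. At an unadjusted p under 0.05 there were 10 genes higher (background 6.01%) and 1 lower (background 5.21%). Wnt1 and control libraries were fully separated for 11 higher genes (background 8.67%) and 2 lower ones (background 7.87%). DESeq2 on the same counts called 7 genes higher (background 1.54%): HSPA5, MANF, HERPUD1, SYVN1, SDF2L1, DNAJB9 and HYOU1. The calls hung on single libraries: without control replicate 1 edgeR called 9 genes higher (background 3.9%), and without Wnt1_KP6 replicate 1, a library of neither group, it called HERPUD1, HSPA5 and MANF (background 0.308%).

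The effect of KP6 on cells with the Wnt1 plasmid was read from Wnt1_KP6 against Wnt1 libraries. The chaperones, isomerases and translocon genes lay close together in the 2 groups, and the highest fold changes were those of the sensor genes ERN1 and EIF2AK3 and of XBP1, with a higher level in replicates 2 and 3 and not in replicate 1. The median of the 34 log2 fold changes was 0.01 (0.00 over all genes), with 20 above 0. That balance depends on scaling: with library totals alone 8 were above 0, with a median of -0.04 against -0.05 over all genes. edgeR's quasi-likelihood test called 0 of 34 genes (background 0%), and at an unadjusted p under 0.05 there were 0 higher (background 2.12%) and 0 lower (background 0.639%). DESeq2 called 0 (background 0.137% higher and 0.0152% lower). Libraries did not overlap for 1 gene that was higher, DERL1 (background 2.87%), and 1 that was lower, DERL3 (background 2.94%).

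Wnt1_KP6 against control libraries compared cells with both manipulations to cells with neither. It shares its control libraries with the first comparison and its Wnt1_KP6 libraries with the second. The median of the 34 genes was 0.19 (-0.01 over all genes) and 29 were above 0. edgeR's quasi-likelihood test called 0 of 34 (background 0.228%), with 14 higher (background 9.1%) and 1 lower (background 6.68%) at an unadjusted p under 0.05. Libraries did not overlap for 10 genes that were higher (background 8.74%) and 1, ATF6, that was lower (background 7.8%). DESeq2 called 9 higher (background 3.57%), those of the Wnt1 comparison with XBP1 and ERN1 added. The main fit did not pair libraries by replicate number. A replicate block in the edgeR fit called 1 gene, MANF (adjusted p = 0.047, background 0.928%). Without control replicate 1 edgeR called 9 genes (background 5.38%), and without Wnt1_KP6 replicate 1 it called 7 (background 3.91%).

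**Figure D2:**
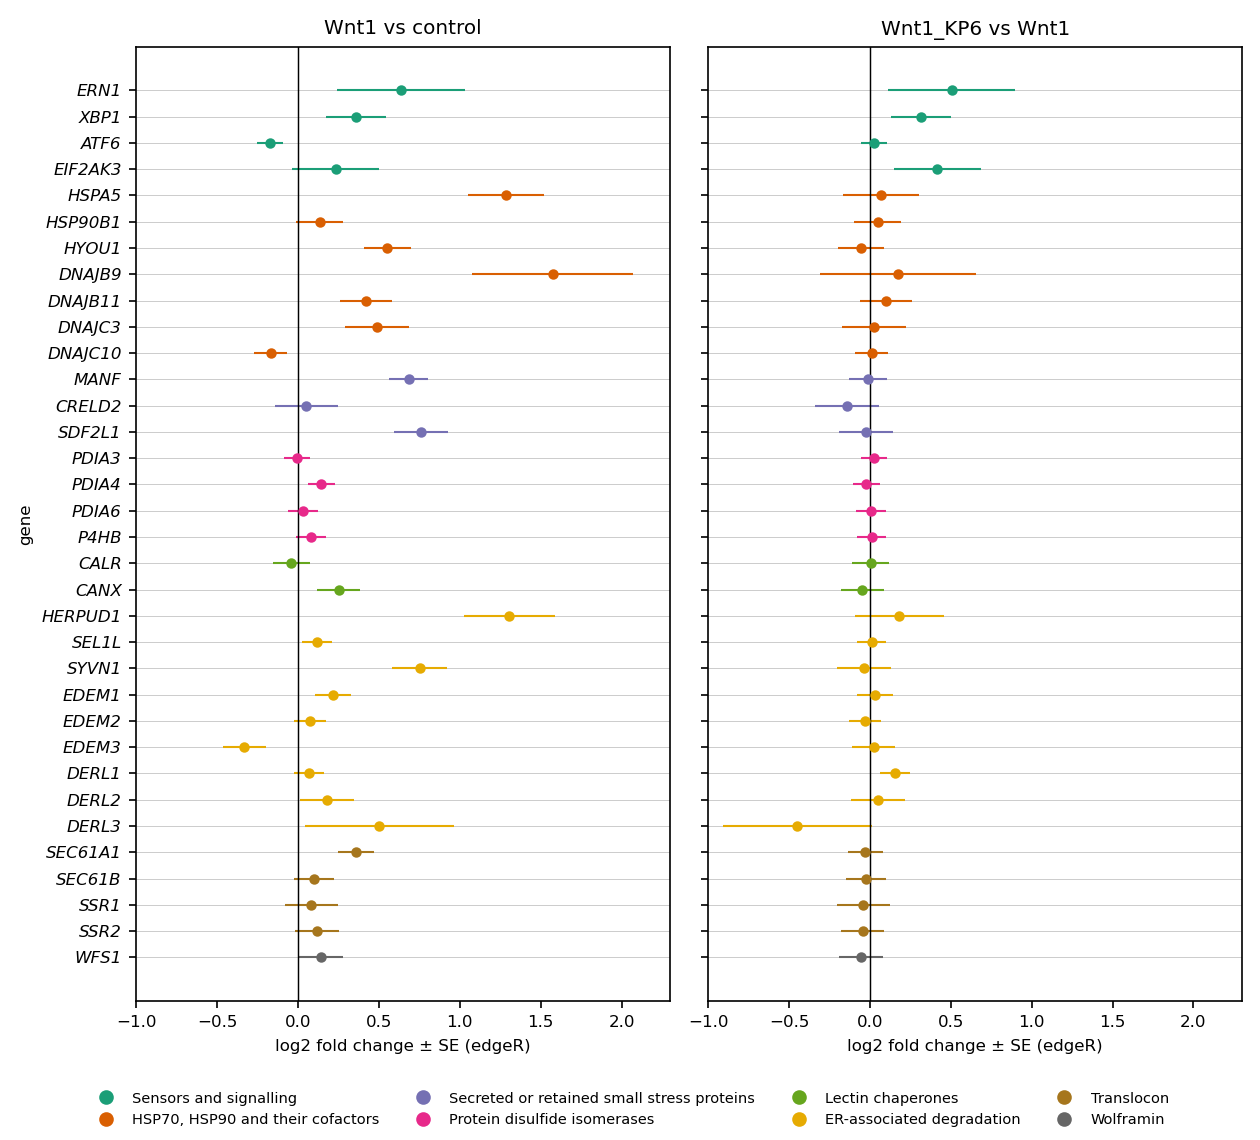
Log2 fold changes (points) with standard errors (bars) from edgeR for the 34 genes, in order of role, in Wnt1 against control libraries on the left and Wnt1_KP6 against Wnt1 libraries on the right. On the left DNAJB9, HERPUD1 and HSPA5 lie above 1.2; on the right ERN1 at 0.50 is the highest and DERL3 at -0.45 the lowest.

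Positions are from GENCODE 29 on GRCh38, counted from 1, and all genes named with one are protein-coding. Among the sensors, ERN1 (ENSG00000178607, chr17:64039142-64130819, minus strand) encodes IRE1, the kinase and ribonuclease that splices XBP1. It had 30.4, 55.3 and 56.4 CPM in Wnt1_KP6 libraries, 31.4, 35.5 and 33.2 CPM in Wnt1 libraries and 36.8, 14.1 and 13.3 CPM in control libraries. Control replicate 1 lay above every Wnt1 library, while control replicates 2 and 3 lay below all 6 libraries with the Wnt1 plasmid. The fold change of 0.64 ± 0.40 (log2 ± SE) in Wnt1 against control libraries did not pass (edgeR adjusted p = 0.601). Wnt1_KP6 against Wnt1 libraries gave 0.50 ± 0.39 (edgeR adjusted p = 1), with log2 ratios of -0.05, 0.64 and 0.76 in replicates 1, 2 and 3. EIF2AK3 (ENSG00000172071, chr2:88556741-88627576, minus strand) encodes PERK, the kinase that phosphorylates the initiation factor eIF2 alpha. It had 48.3, 68.01 and 66.3 CPM in Wnt1_KP6 libraries, 50.1, 42.4 and 44.2 CPM in Wnt1 libraries and 58.2, 29.4 and 28.7 CPM in control libraries. Replicates 2 and 3 of Wnt1_KP6 stood above all Wnt1 libraries, and replicate 1 did not; control replicate 1 again stood far above the other controls. The fold change in Wnt1_KP6 against Wnt1 libraries was 0.42 ± 0.27 (edgeR adjusted p = 1). Of the exon bases of EIF2AK3, 15.1% lie opposite other genes, and the library kit is not stated to keep strand.

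XBP1 (ENSG00000100219, chr22:28794555-28800597, minus strand), the transcription factor made active by IRE1 splicing, had 113, 196 and 190.2 CPM in Wnt1_KP6 libraries, 119.98, 141 and 140.5 CPM in Wnt1 libraries and 107, 103 and 103 CPM in control libraries. All 3 Wnt1 libraries were above all 3 controls, which agreed closely, and replicates 2 and 3 of Wnt1_KP6 were above every other library. Its log2 fold change was 0.36 ± 0.19 in Wnt1 against control libraries, 0.31 ± 0.19 in Wnt1_KP6 against Wnt1 libraries and 0.67 ± 0.19 in Wnt1_KP6 against control libraries (edgeR adjusted p = 0.521, 1 and 0.145). Without Wnt1_KP6 replicate 1, edgeR called XBP1 in Wnt1_KP6 against Wnt1 libraries (log2 fold change 0.53, background 1.39%). Gene-level counts do not separate its spliced from its unspliced form. ATF6, the sensor that is itself cut to a transcription factor, had 85.1, 86.5 and 84.9 CPM in Wnt1_KP6 libraries, 85.1, 83.3 and 84.2 CPM in Wnt1 libraries and 87.9, 103 and 93.95 CPM in control libraries. It was one of 2 genes whose Wnt1 libraries all lay below the controls, at -0.17 ± 0.08 (edgeR adjusted p = 0.462) or 0.887 times the control mean.

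HSPA5 (ENSG00000044574, chr9:125234853-125241330, minus strand), the ER HSP70 chaperone BiP that also restrains the sensors, had 1384, 2355 and 2202 CPM in Wnt1_KP6 libraries, 1576, 2051 and 2037 CPM in Wnt1 libraries and 994, 693 and 636 CPM in control libraries. The 6 libraries with the Wnt1 plasmid did not overlap the controls. Fitted means were 2.56 times as high in Wnt1_KP6 libraries and 2.44 times as high in Wnt1 libraries as in control libraries, which is 1.35 ± 0.24 and 1.29 ± 0.24 on the log2 scale (edgeR adjusted p = 0.0584 and 0.11). Wnt1_KP6 against Wnt1 libraries gave 0.07 ± 0.23 (edgeR adjusted p = 1). DNAJB9 (ENSG00000128590, chr7:108569568-108574850, plus strand) encodes ERdj4, a cochaperone that recruits BiP to IRE1 and to clients for degradation. It had 24.5, 56.6 and 55.1 CPM in Wnt1_KP6 libraries, 26.9, 48.3 and 45.8 CPM in Wnt1 libraries and 24.1, 8.98 and 7.51 CPM in control libraries. Its controls were split: replicate 1 lay just under the replicate 1 libraries of the other groups, and replicates 2 and 3 lay far below every other library. The log2 fold change was 1.57 ± 0.50 in Wnt1 and 1.75 ± 0.50 in Wnt1_KP6 against control libraries (edgeR adjusted p = 0.297 and 0.158). Without control replicate 1 the fold change in Wnt1 against control libraries was 2.29 and was called (edgeR adjusted p = 0.0241).

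HYOU1 (ENSG00000149428, chr11:119044189-119057202, minus strand), an HSP70-related exchange factor of BiP, had 215, 289 and 275 CPM in Wnt1_KP6 libraries, 227, 293 and 289.9 CPM in Wnt1 libraries and 173, 179 and 200.04 CPM in control libraries. No control library reached the lowest of the others. Its log2 fold change was 0.55 ± 0.14 in Wnt1 and 0.50 ± 0.14 in Wnt1_KP6 against control libraries (edgeR adjusted p = 0.209 and 0.157) and -0.06 ± 0.14 in Wnt1_KP6 against Wnt1 libraries. DNAJB11 (ERdj3), a cochaperone that hands clients to BiP, had 79.4, 109 and 112 CPM in Wnt1_KP6 libraries, 82.4, 97.1 and 100.05 CPM in Wnt1 libraries and 82.3, 64.4 and 61.7 CPM in control libraries. Replicate 1 was almost equal in Wnt1 and control libraries, and the gap stood in replicates 2 and 3. DNAJB11 was at 0.42 ± 0.16 in Wnt1 and 0.52 ± 0.16 in Wnt1_KP6 against control libraries (edgeR adjusted p = 0.369 and 0.17). In Wnt1_KP6 against Wnt1 libraries it was at 0.10 ± 0.16 and was not called. DNAJC3, which restrains PERK and also serves as a cochaperone, had 45.1, 53.7 and 58.2 CPM in Wnt1_KP6 libraries, 44.9, 54.5 and 55.1 CPM in Wnt1 libraries and 49.5, 31.8 and 28.8 CPM in control libraries. Control replicate 1 lay inside the range of the other groups, and control replicates 2 and 3 lay below it. HSP90B1 (GRP94), the chaperone of integrins and Toll-like receptors, was at 0.13 ± 0.14 in Wnt1 against control libraries, with overlapping libraries. DNAJC10 (ERdj5), a disulfide reductase, was the one gene of these 7 with a lower mean in Wnt1 libraries (-0.17 ± 0.10), again with overlap. With all 9 libraries neither HSP90B1 nor DNAJC10 was called by edgeR or by DESeq2 in either comparison with control libraries. With replicates 2 and 3 alone edgeR called HSP90B1 higher in both, at 0.21 ± 0.06 in Wnt1 and 0.32 ± 0.06 in Wnt1_KP6 against control libraries (edgeR adjusted p = 0.0177 and 0.00104).

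Of the small stress proteins, MANF and SDF2L1 were higher in libraries with the plasmid without passing the test over all genes, and CRELD2 was not. MANF (ENSG00000145050, chr3:51385047-51389397, plus strand), a neurotrophic factor-like protein that binds BiP and can be secreted, had 30.7, 39.5 and 36.2 CPM in Wnt1_KP6 libraries, 32.1, 38.1 and 37.3 CPM in Wnt1 libraries and 23.2, 21.1 and 22.6 CPM in control libraries. The lowest of the 6 libraries with the Wnt1 plasmid lay well above the highest control, and the 3 controls were close together. MANF had the smallest p of the 34 genes in Wnt1 against control libraries, with a log2 fold change of 0.68 ± 0.12 (edgeR adjusted p = 0.0982), and was at 0.67 ± 0.12 in Wnt1_KP6 against control libraries (edgeR adjusted p = 0.0599, and 0.047 with the replicate block). SDF2L1 (ENSG00000128228, chr22:21642261-21644298, plus strand), a component of the BiP and ERdj3 chaperone complex, had 7.61, 7.73 and 6.79 CPM in Wnt1_KP6 libraries, 7.7, 7.03 and 7.76 CPM in Wnt1 libraries and 4.71, 3.48 and 5.08 CPM in control libraries. Its controls did not reach the other 6 libraries either, although its level was low. Its log2 fold change was 0.76 ± 0.17 in Wnt1 and 0.74 ± 0.17 in Wnt1_KP6 against control libraries (edgeR adjusted p = 0.152 and 0.0984), and replicate 1 showed it at 0.71 in Wnt1 against control libraries. CRELD2, a disulfide-isomerase-like protein that is secreted under ER stress, had 12.3, 14.8 and 14.97 CPM in Wnt1_KP6 libraries, 12.02, 17.00 and 17.5 CPM in Wnt1 libraries and 11.7, 14.95 and 18.1 CPM in control libraries. The 3 groups overlapped throughout, at 0.05 ± 0.20 in Wnt1 against control libraries and -0.14 ± 0.20 in Wnt1_KP6 against Wnt1 libraries.

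**Figure D3:**
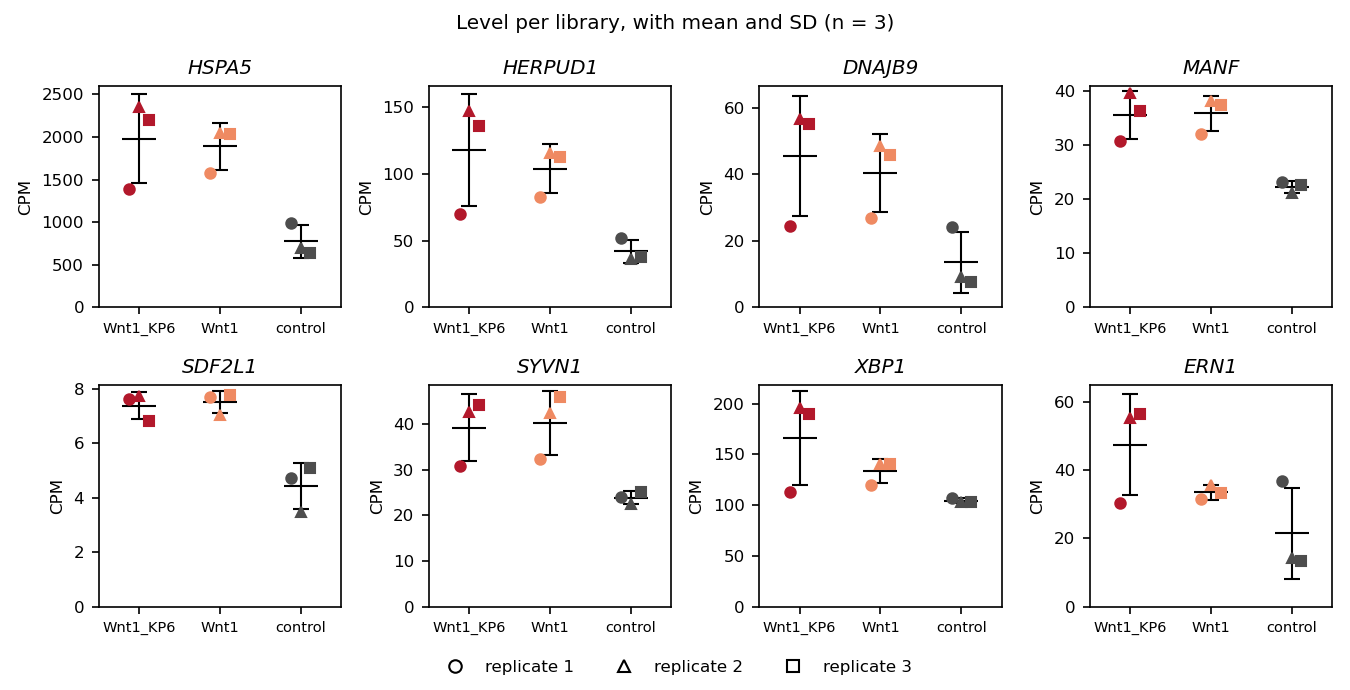
CPM per library of 8 genes in Wnt1_KP6, Wnt1 and control libraries (colours), with replicate 1 as circles, 2 as triangles and 3 as squares; black bars give the mean and SD of 3 libraries. HSPA5, HERPUD1, MANF, SDF2L1 and SYVN1 separate control from the other groups in every replicate, while ERN1 has control replicate 1 at 36.8 CPM above all Wnt1 libraries.

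The protein disulfide isomerases, which form and rearrange disulfide bonds, and the lectin chaperones, which hold glycoproteins until they fold, were abundant, and with all 9 libraries edgeR called none of them. Log2 fold changes in Wnt1 against control libraries were -0.01 ± 0.08 for PDIA3, 0.14 ± 0.08 for PDIA4, 0.03 ± 0.09 for PDIA6 and 0.08 ± 0.09 for P4HB. PDIA4 was the one of the 4 whose Wnt1 libraries lay above all controls, with 386, 373 and 381 CPM in Wnt1 libraries, against 369, 324 and 339 CPM in control libraries. The margin was small, between Wnt1 replicate 2 and control replicate 1. CALR was at -0.04 ± 0.11 and CANX, its membrane-bound relative calnexin, at 0.25 ± 0.13. Libraries of both overlapped. CANX had 652, 731 and 750.2 CPM in Wnt1_KP6 libraries, 670.4, 787 and 747 CPM in Wnt1 libraries and 733, 583 and 537 CPM in control libraries, so its control replicate 1 lay with the other groups and its control replicates 2 and 3 below them. With replicates 2 and 3 alone edgeR called CANX higher in Wnt1 (0.46 ± 0.06) and in Wnt1_KP6 (0.40 ± 0.06) against control libraries (edgeR adjusted p = 6.18e-05 and 0.000125). PDIA4 was called there too, at 0.18 ± 0.06 and 0.18 ± 0.06 (edgeR adjusted p = 0.025 and 0.0234), while PDIA3, PDIA6, P4HB and CALR were not. These 6 genes in Wnt1_KP6 against Wnt1 libraries ran from -0.05 (CANX) to 0.03 (PDIA3). Of the exon bases of PDIA6 25.2% and of PDIA3 18.9% lie opposite other genes, so their counts are less certain.

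In ER-associated degradation, HERPUD1 (ENSG00000051108, chr16:56932048-56944863, plus strand), an ER membrane protein that gathers the degradation complex, had 69.98, 147 and 136 CPM in Wnt1_KP6 libraries, 82.9, 116 and 113 CPM in Wnt1 libraries and 52.1, 36.3 and 37.8 CPM in control libraries. Controls lay below all 6 other libraries in each replicate, and Wnt1_KP6 replicates 2 and 3 were the highest of all. Its mean was 2.8 times as high in Wnt1_KP6 and 2.47 times as high in Wnt1 libraries as in control libraries, or 1.49 ± 0.28 and 1.31 ± 0.28 on the log2 scale (edgeR adjusted p = 0.0691 and 0.143). With KP6, against Wnt1 libraries, it was 0.18 ± 0.28 (edgeR adjusted p = 1), and the direction turned to -0.01 without Wnt1_KP6 replicate 2. SYVN1 (ENSG00000162298, chr11:65121780-65134533, minus strand) encodes HRD1, the ubiquitin ligase of the pathway. It had 30.7, 42.8 and 44.3 CPM in Wnt1_KP6 libraries, 32.4, 42.4 and 45.96 CPM in Wnt1 libraries and 24.1, 22.4 and 25.1 CPM in control libraries. Here too no control reached the other groups, with 0.75 ± 0.17 in Wnt1 and 0.72 ± 0.17 in Wnt1_KP6 against control libraries (edgeR adjusted p = 0.152 and 0.105). SEL1L, the partner that holds HRD1 in place, had 118, 119 and 118 CPM in Wnt1_KP6 libraries, 118, 116 and 118 CPM in Wnt1 libraries and 121, 107 and 98.03 CPM in control libraries. It lay close together in all libraries (0.12 ± 0.09 in Wnt1 against control libraries), and control replicates 2 and 3 were the lowest. Replicates 2 and 3 alone gave 0.20 ± 0.07 in Wnt1 and 0.21 ± 0.07 in Wnt1_KP6 against control libraries, both called (edgeR adjusted p = 0.0409 and 0.0224). Of SYVN1's exon bases 8.39% are shared with genes on the same strand.

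The EDEM genes encode mannosidase-like proteins that mark misfolded glycoproteins, and they did not move as one. EDEM1 was at 0.22 ± 0.11 in Wnt1 against control libraries, EDEM2 at 0.07 ± 0.10 and EDEM3 at -0.33 ± 0.13. EDEM3 had 34.6, 42.1 and 47.05 CPM in Wnt1_KP6 libraries, 38.9, 42.7 and 40.2 CPM in Wnt1 libraries and 50.5, 57.6 and 45.2 CPM in control libraries. All 3 Wnt1 libraries were below all controls, while Wnt1_KP6 replicate 3 reached into the control range. The edgeR adjusted p for EDEM3 was 0.393. The derlins DERL1, DERL2 and DERL3 form part of the channel through which clients leave the ER. DERL1 had 80.1, 87.5 and 96.4 CPM in Wnt1_KP6 libraries, 79.4, 79.9 and 77.4 CPM in Wnt1 libraries and 81.2, 72.8 and 72.2 CPM in control libraries. Its 3 Wnt1_KP6 libraries lay just above its 3 Wnt1 libraries, at 0.16 ± 0.09 (edgeR adjusted p = 1). DERL2 was at 0.18 ± 0.17 in Wnt1 against control and 0.05 ± 0.17 in Wnt1_KP6 against Wnt1 libraries. DERL3 was at 0.50 ± 0.46 and -0.45 ± 0.46 in the same comparisons, at 0.732 to 2.57 CPM, and 77% of its exon bases lie opposite SMARCB1, so its value is uncertain. In Wnt1 against control libraries edgeR called DERL2 (0.47 ± 0.10) and DERL3 (1.27 ± 0.30) higher with replicates 2 and 3 alone (edgeR adjusted p = 0.00285 and 0.00607, background 16.3%). In Wnt1_KP6 against control libraries it called DERL2 (0.45 ± 0.10) and DERL1 (0.34 ± 0.07) higher there (edgeR adjusted p = 0.00263 and 0.00228, background 21.1%).

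At the translocon, through which nascent proteins enter the ER, SEC61A1, the channel subunit, had 407, 485 and 478 CPM in Wnt1_KP6 libraries, 415, 492 and 492 CPM in Wnt1 libraries and 386, 345 and 359 CPM in control libraries. Controls lay below all 6 other libraries, though replicate 1 by a narrow margin. Its log2 fold change was 0.36 ± 0.11 in Wnt1 and 0.33 ± 0.11 in Wnt1_KP6 against control libraries (edgeR adjusted p = 0.281 and 0.196). The small channel subunit SEC61B (0.10 ± 0.12) and the translocon-associated SSR1 (0.08 ± 0.16) and SSR2 (0.12 ± 0.13) had overlapping libraries in Wnt1 against control. Of these, edgeR called only SSR1 with replicates 2 and 3 alone. It was higher in Wnt1 (0.23 ± 0.07) and in Wnt1_KP6 (0.21 ± 0.07) against control libraries (edgeR adjusted p = 0.0304 and 0.0392). WFS1, wolframin, an ER membrane protein of calcium balance, was at 0.14 ± 0.14 in Wnt1 against control libraries and -0.06 ± 0.14 in Wnt1_KP6 against Wnt1 libraries, with overlap in both.

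**Figure D4:**
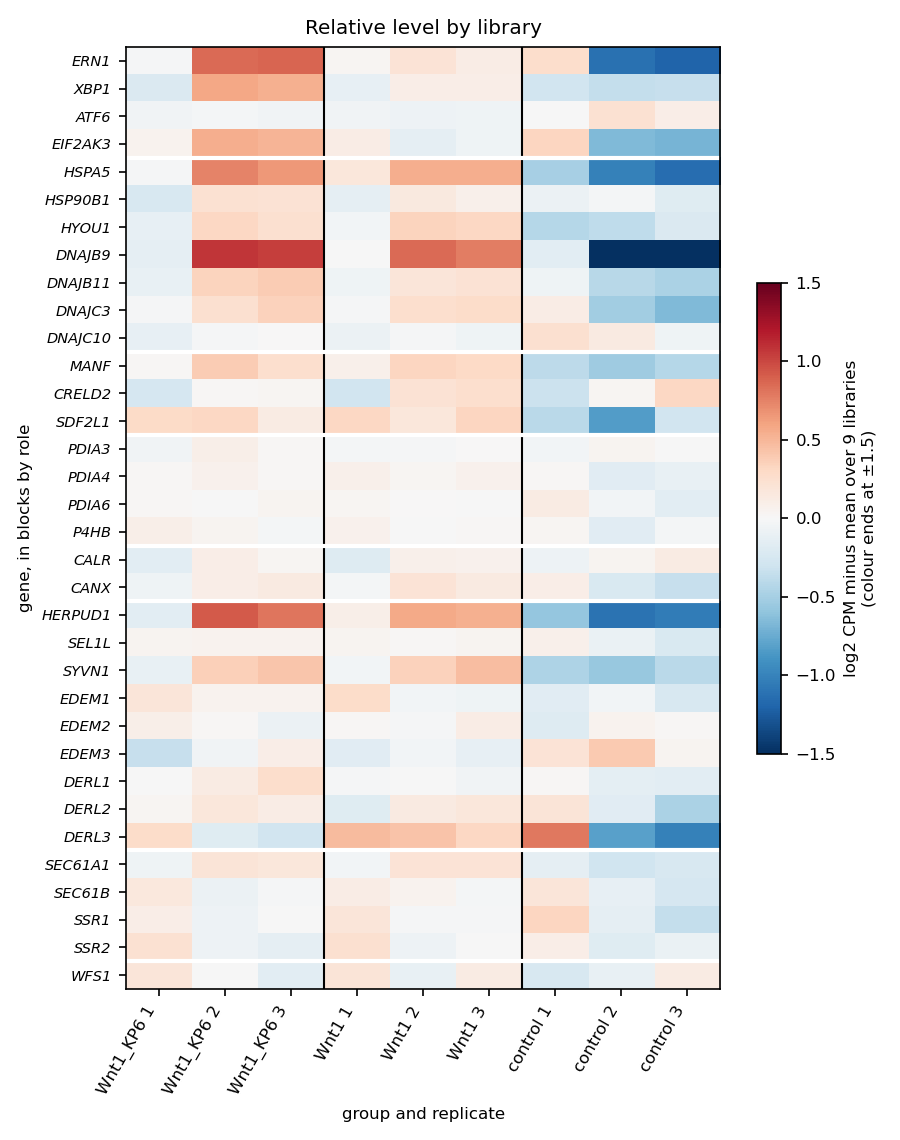
Log2 CPM of each gene minus its mean over the 9 libraries (red above, blue below, colours end at ±1.5), with genes in blocks by role and libraries in the order Wnt1_KP6, Wnt1 and control. DNAJB9, HSPA5, HERPUD1 and ERN1 carry strong colours, and for these 4 genes the column of replicate 1 is paler than those of replicates 2 and 3 in Wnt1_KP6 and control libraries.

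Replicate 1 lay above both or below both of the other replicates for most of the 34 genes, as it did for most genes tested. Control replicate 1 was above both other controls for 22 of 34 genes (64.7%, against 42.8% of all genes tested) and below both for 7 (20.6%, against 41.9%). Wnt1_KP6 replicate 1 was below both others for 23 of 34 (67.6%, against 43.1%) and above both for 8 (23.5%, against 44.4%). Wnt1 replicate 1 was below both others for 19 (55.9%, against 42.7%) and above both for 12 (35.3%, against 42.8%). In Wnt1 against control libraries, log2 ratios of same-numbered libraries had medians over the 34 genes of 0.01, 0.19 and 0.31 in replicates 1, 2 and 3. All 3 ratios were above 0 for 14 genes and below 0 for 3, while 12 were above 0 in replicates 2 and 3 and below 0 in replicate 1. Between Wnt1_KP6 and Wnt1 libraries the medians were -0.04, 0.04 and 0.01, and 12 genes were above 0 in replicates 2 and 3 and below 0 in replicate 1. The libraries of replicate 1 also had the lower mitochondrial share and the ATF3 levels given above; the part of these in the result was not tested.

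With replicates 2 and 3 alone (2 libraries a group), edgeR's quasi-likelihood test called 20 genes higher (background 16.3%) and 2, ATF6 and EDEM3, lower (background 15.3%) in Wnt1 against control libraries. In Wnt1_KP6 against control libraries it called 20 higher (background 21.1%) and 1, ATF6, lower (background 19.5%). In Wnt1_KP6 against Wnt1 libraries it called 4 higher (background 6.06%) and 0 lower (background 2.56%). Those 4 were ERN1 at 0.70 ± 0.08 (edgeR adjusted p = 4.84e-05), EIF2AK3 at 0.63 ± 0.08 (edgeR adjusted p = 6.67e-05), XBP1 at 0.45 ± 0.06 (edgeR adjusted p = 0.00019) and HERPUD1 at 0.31 ± 0.07 (edgeR adjusted p = 0.0128). In replicate 1 the same 4 genes had log2 ratios of -0.05, -0.05, -0.08 and -0.24. For 2 of the sensors and the target of IRE1, then, the direction in Wnt1_KP6 against Wnt1 libraries was upward in replicates 2 and 3 and slightly downward in replicate 1. In Wnt1 against control libraries, DNAJB9 was at 2.51 ± 0.10 in replicates 2 and 3 (edgeR adjusted p = 5.44e-10) against 0.16 in replicate 1, and ERN1 at 1.32 ± 0.09 (edgeR adjusted p = 1.16e-07) against -0.23. Errors and p-values from replicates 2 and 3 alone leave out the spread between them and replicate 1. With all 9 libraries DNAJB9 was at 1.57 ± 0.50 (edgeR adjusted p = 0.297) and ERN1 at 0.64 ± 0.40 (edgeR adjusted p = 0.601). HSPA5, HERPUD1, MANF, SDF2L1, SYVN1 and HYOU1 were higher in Wnt1 than in control libraries in replicate 1 as well, by 0.66, 0.67, 0.46, 0.71, 0.43 and 0.39.

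**Figure D5:**
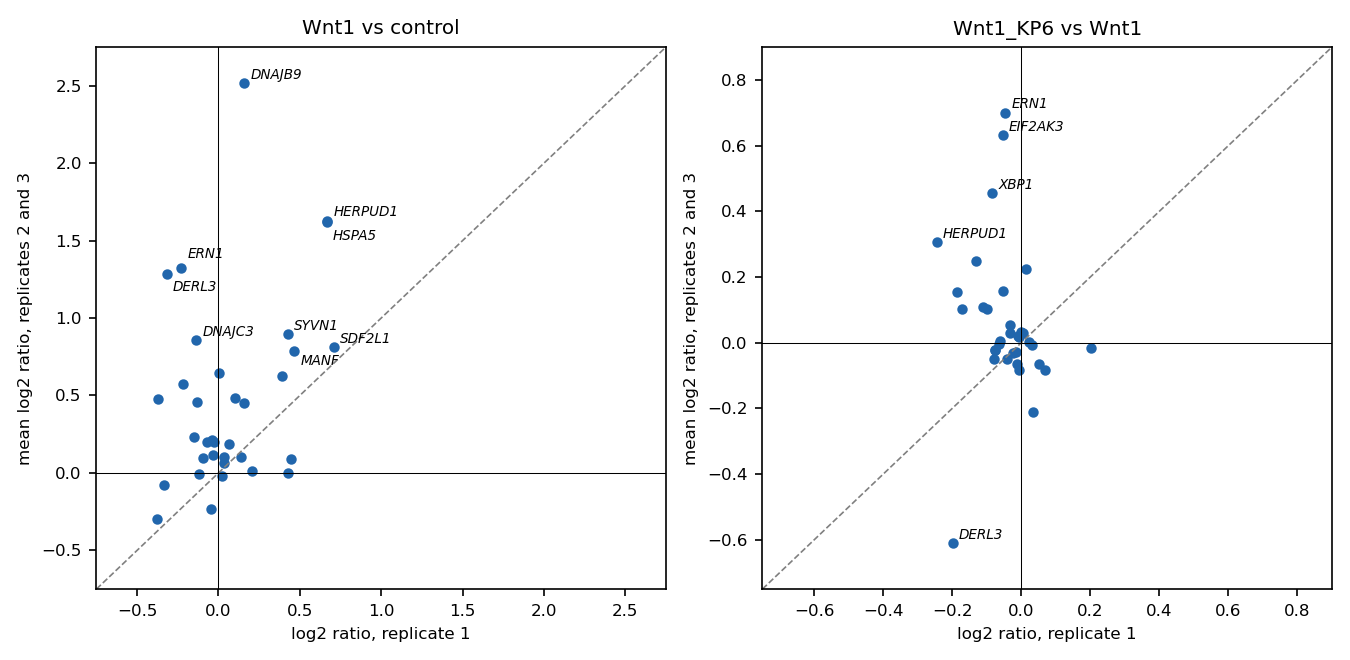
Log2 ratio of same-numbered libraries in replicate 1 (x axis) against the mean of replicates 2 and 3 (y axis) for the 34 genes; the dashed line marks equal values. In Wnt1 against control libraries on the left most points lie above the line, with DNAJB9 at 0.16 on the x axis; in Wnt1_KP6 against Wnt1 libraries on the right ERN1, EIF2AK3, XBP1 and HERPUD1 lie above 0.3 on the y axis and below 0 on the x axis.

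Around the 34 genes, 9 further lists of the same pathway held 145 genes, of which 142 were tested. In the PERK and ATF4 branch (12 genes), 5 genes were higher (background 6.01%) and 0 lower (background 5.21%) in Wnt1 against control libraries at an unadjusted edgeR p under 0.05. Libraries did not overlap for 4 higher genes (background 8.67%), and DESeq2 called 3 higher (background 1.54%). After adjustment, edgeR's quasi-likelihood test called 1 higher and 0 lower (background 0.122%). This was TRIB3, a pseudokinase that ATF4 and CHOP induce, with 255, 302 and 273 CPM in Wnt1_KP6 libraries, 268, 269 and 268 CPM in Wnt1 libraries and 125, 91.6 and 100.2 CPM in control libraries (edgeR adjusted p = 0.00801 in Wnt1 and 0.018 in Wnt1_KP6 against control libraries). These calls rested on single libraries. In Wnt1 against control libraries TRIB3 was not called without control replicate 2 (edgeR adjusted p = 0.11), control replicate 3 (0.0644) or Wnt1 replicate 3 (0.059). In Wnt1_KP6 against control libraries it was not called without control replicate 2 (edgeR adjusted p = 0.136), control replicate 3 (0.081), Wnt1 replicate 3 (0.0583), Wnt1_KP6 replicate 2 (0.119) or Wnt1_KP6 replicate 3 (0.1), nor in the fit to the 2 groups alone (0.0881). Its log2 fold change stayed between 1.25 and 1.49 in Wnt1 and between 1.3 and 1.58 in Wnt1_KP6 against control libraries under the alternatives run. Unlike DNAJB9, it was high in replicate 1 of both groups with the plasmid. The branch had a median log2 fold change of 0.46 over its 12 genes in Wnt1 against control libraries, with ratios of 0.77, 0.43 and 0.23 in replicates 1, 2 and 3 so that it was highest in replicate 1, where the median of the 34 genes was lowest. The 8 other lists (130 genes tested) had 0 genes past the edgeR threshold throughout the 3 comparisons in the main fit. At an unadjusted p under 0.05 they held 11 higher and 10 lower genes in Wnt1 against control libraries (background 6.01% and 5.21%), where DESeq2 called 4 higher (background 1.54%) and 3 lower (background 0.76%). With the replicate block, edgeR called 1 higher gene each of ER export and ER calcium there, and 83 of all 13153. In Wnt1_KP6 against control libraries the blocked fit called 1 higher gene of ER calcium (background 0.928%).

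From those lists the gene with the smallest p is given. In Wnt1 against control libraries SELENOS, a selenoprotein of the degradation complex, was at 0.62 ± 0.13 (edgeR adjusted p = 0.128), with 15.6, 19.8 and 20.7 CPM in Wnt1_KP6 libraries, 16.6, 18.00 and 19.1 CPM in Wnt1 libraries and 12.5, 11.1 and 11.3 CPM in control libraries. Its libraries did not overlap the controls. PREB, which activates ER export vesicles, was at 0.51 ± 0.10 (edgeR adjusted p = 0.125, or 0.037 in the fit with the replicate block). The calcium channel ITPR3 was at 0.58 ± 0.34 (edgeR adjusted p = 0.575, or 0.0282 in the blocked fit). The signal peptidase subunit SPCS3 was at -0.41 ± 0.10, the ER-phagy receptor CCPG1 at -0.43 ± 0.11, the ATF6-cleaving protease MBTPS2 at -0.28 ± 0.10, the oligosaccharyltransferase subunit TUSC3 at -0.18 ± 0.08 and the ubiquitin ligase RNF5 at 0.33 ± 0.13, each short of the edgeR threshold with all 9 libraries (edgeR adjusted p = 0.173, 0.209, 0.366, 0.45 and 0.383). DESeq2 called SELENOS, PREB, SPCS3 and CCPG1 (DESeq2 adjusted p = 0.00777, 0.00285, 0.00802 and 0.0458). With replicates 2 and 3 alone edgeR called each of the 8 named genes but TUSC3 (background 16.3% higher and 15.3% lower). They were chosen for a small p in a fit that held these libraries, so these calls are no separate test of them.

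In Wnt1_KP6 against Wnt1 libraries PPP1R15B, the subunit that directs a phosphatase to eIF2 alpha and so opposes PERK, had 163, 285 and 289.6 CPM in Wnt1_KP6 libraries, against 173, 150.1 and 145 CPM in Wnt1 libraries. Like ERN1 and EIF2AK3 it was high in replicates 2 and 3 of Wnt1_KP6 and not in replicate 1, at 0.65 ± 0.21 over all libraries (edgeR adjusted p = 1) and 0.96 ± 0.06 in replicates 2 and 3 (edgeR adjusted p = 6.99e-08). The ER-phagy receptor RETREG1 was at 0.67 ± 0.31 with 3.94, 8.29 and 9.2 CPM in Wnt1_KP6 libraries, against 4.75, 4.84 and 3.84 CPM in Wnt1 libraries, and the ubiquitin ligase RNF139 at 0.40 ± 0.16. The others were ATP2A3, an ER calcium pump (0.38 ± 0.25), SDF2, the uninduced relative of SDF2L1 (0.19 ± 0.10), SPCS3 (0.16 ± 0.10), the cargo receptor subunit MCFD2 (0.07 ± 0.09), PREB (-0.12 ± 0.10) and the ER-membrane transcription factor CREB3L1 (-0.14 ± 0.16), all with an edgeR adjusted p of 1. With replicates 2 and 3 alone edgeR also called RETREG1 and RNF139 higher (edgeR adjusted p = 0.000988 and 0.0021, background 6.06%). PPP1R15B, RETREG1 and RNF139 were chosen for a small p in a fit that held these libraries. Their calls with replicates 2 and 3 alone are thus no separate test of them.

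In Wnt1_KP6 against control libraries the smallest p of each list beside TRIB3 belonged to SELENOS (0.68 ± 0.13, edgeR adjusted p = 0.0691), SEC23B of the export coat (0.65 ± 0.13, edgeR adjusted p = 0.0792), ATL3, an ER-shaping GTPase and ER-phagy receptor (-0.31 ± 0.09), SRPRA, the receptor of the signal recognition particle (0.28 ± 0.09), STIM1, the ER calcium sensor (0.24 ± 0.08), the conjugating enzyme UBE2J1 (0.31 ± 0.11), the mannosidase MAN1B1 (-0.32 ± 0.12) and MBTPS2 (-0.25 ± 0.10). With all 9 libraries edgeR called none of these 8. DESeq2 called SELENOS and SEC23B higher (DESeq2 adjusted p = 0.00118 and 0.00119, background 3.57%) and ATL3 lower (DESeq2 adjusted p = 0.0458, background 1.55%). With replicates 2 and 3 alone edgeR called all 8 (edgeR adjusted p = 1.01e-07 to 0.0323, background 21.1% higher and 19.5% lower). The 8 were chosen for a small p in a fit that held these libraries, so these calls are no separate test of them.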

How the data were processed

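Per the labels' protocols, Trizol RNA was selected for poly(A) on oligo(dT) beads, and NEBNext Ultra libraries were sequenced on an Illumina NovaSeq. Per the submitters' processing notes, fastp 0.18.0, Bowtie2 2.2.8, HISAT2, StringTie 1.3.1, RSEM and build hg38 were used; which step each served is not given in the sources used here. Deposited by the authors were expected counts (87.6% whole) and FPKM values of 20323 genes, per the file headers. Expected counts share reads between genes with common sequence. FPKM was used only for levels between genes. Coordinates of exons came from GENCODE 29 (20171 IDs matched).

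Expected counts were rounded. edgeR 4.0.16 in R 4.3.3 (filterByExpr with minimum count 10 and minimum total count 15, TMM, robust quasi-likelihood test, two-sided) was fitted to all 9 libraries with 3 group means on 13153 genes, with Benjamini-Hochberg adjustment over all and a threshold of 0.05. The edgeR steps were run on simulated counts for Wnt1 against control only. Those counts had the same spread for every gene and no shift of replicate 1. They thus do not show how the test behaves with a replicate 1 like that seen here. Alternatives were DESeq2 1.42.0, other scaling, no filter, a replicate block, the groups compared alone, replicates 2 and 3 only, and leaving out each library. Depth sets the precision, and limits for a count of 0 cover counting error only.

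The main fit did not pair libraries by the replicate numbers in the titles, since the labels do not say that a number marks a shared culture. Only the replicate block and the ratios of same-numbered libraries paired them. Deviations of same-numbered libraries from their group means correlated at 0.11 to 0.672 in all 9 pairs. Libraries numbered 2 and 3 also correlated across these numbers (0.154 to 0.398), so the correlations do not tell 2 from 3. Replicate 1 correlated negatively with both. Deviations from a group mean cancel out within the group, so these negative values together follow from the positive ones between replicate 1 libraries. They are no separate sign that replicate 1 differs. No 2 libraries of a group agreed within sampling noise (smallest chi-square per degree of freedom 3.12). The 34 members, the lists, the tests and the named-gene rule were chosen with earlier results of these data known. The rule gave fold changes to every called member or, with fewer than 8 called, to the 8 with the smallest p, and to the called genes of each other list or the 1 with the smallest p. Further members were added after their values were seen.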

Additional observations from a re-analysis of the deposited data

How the results depend on the processing

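Counts of called genes depended on the libraries more than on the scaling, and the cause was not tested. In Wnt1 against control libraries, edgeR's quasi-likelihood test called 0 of 34 members and 16 of all genes. It called 22 members and 4115 genes with replicates 2 and 3 only, where fewer samples entered, 95 genes with the replicate block and 9 genes with the 2 groups alone. DESeq2 called 7 members and 302 genes. Leaving out 1 library gave 0 to 9 members, 0 to 879 genes and a median member fold change of 0.14 to 0.26. In Wnt1_KP6 against Wnt1 libraries (0 members, 0 genes) the counts were 4 members and 1124 genes with replicates 2 and 3 only, 20 genes by DESeq2, and 0 to 1 members and 0 to 214 genes without 1 library. The median member fold change there was -0.0441 with library totals alone, a scaling added after seeing the data, and -0.0088 to 0.0546 without 1 library. In Wnt1_KP6 against control libraries (0 members, 30 genes) they were 21 members and 5293 genes with replicates 2 and 3 only, 1 member and 149 genes with the replicate block, 13 genes with library totals alone, 0 genes with the 2 groups alone, and 9 members and 674 genes by DESeq2. Without 1 library they were 0 to 9 members and 0 to 1198 genes, with a median of 0.13 to 0.27. HERPUD1 in Wnt1_KP6 against Wnt1 libraries ran from -0.0122 to 0.45 without 1 library. Of the single-gene values under all alternatives, 754 kept their direction and side of the threshold, 100 passed it only under the alternative, 9 no longer passed and 1 reversed. Of the members and list genes given a fold change by the naming rule in each comparison, the replicate block changed the calls of MANF, PREB and ITPR3 alone. With 3 libraries a group, differences smaller than the spread set by replicate 1 could not be told from it.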

Other observations

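Beside the 7 members, 9 other tested genes held CCAAT, then 9 bases, then CCACG in their promoter windows. Their values are given as a description, chosen by that sequence. FICD, the enzyme that switches BiP off and on by AMPylation, was at 1.06 ± 0.16 in Wnt1 against control libraries (log2 ± SE, edgeR adjusted p = 0.0663) and 1.01 ± 0.16 in Wnt1_KP6 against control libraries (edgeR adjusted p = 0.0513). In Wnt1_KP6 against Wnt1 libraries it was at -0.04 ± 0.16. SERP1, a stress-associated protein of the translocon, was at 0.38 ± 0.13 in Wnt1 and 0.38 ± 0.13 in Wnt1_KP6 against control libraries (edgeR adjusted p = 0.34 and 0.211). ERO1B, an oxidase that recharges disulfide isomerases, was at 0.51 ± 0.35 and 0.31 ± 0.35 in the same order of comparisons, and ALG12, a mannosyltransferase that faces CRELD2 head to head, at 0.31 ± 0.11 and 0.18 ± 0.11. TMEM120A, TRIM5 and EIF2A were at 0.38 ± 0.15, 0.32 ± 0.13 and 0.17 ± 0.09 in Wnt1 against control libraries, while ZNF17 and SYNPO were at -0.19 ± 0.20 and -0.40 ± 0.34. In Wnt1_KP6 against control libraries these genes were at 0.51 ± 0.15, 0.26 ± 0.13, 0.18 ± 0.09, -0.35 ± 0.21 and -0.47 ± 0.34 in the same order. None of the 9 was called by edgeR's quasi-likelihood test over all 9 libraries without a replicate block. With replicates 2 and 3 alone it called all but ZNF17 in Wnt1 against control libraries, SYNPO lower (background 16.3% higher and 15.3% lower). In Wnt1_KP6 against control libraries it called all but ALG12 there, SYNPO and ZNF17 lower (background 21.1% higher and 19.5% lower).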
